A study of Mus musculus with 12 samples.

Results

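The 10 genes described here encode secreted factors that act on blood vessels: *Vegfa*, *Vegfb*, *Vegfc*, *Pgf*, *Angpt1*, *Angpt2*, *Thbs1*, *Thbs2*, *Serpinf1* and *Tgfb2*. They were taken by their mouse gene symbols, and all 10 were found among the 28591 genes of the table. RNA was sequenced from the retinal pigment epithelium (RPE) of 6 WT mice (C57BL/6J) and 6 rd6 mice (Mfrp rd6/rd6), 1 mo of age, with the RPE of both eyes combined in each library. The rd6 mice carry a mutation in *Mfrp*, which encodes membrane frizzled-related protein of the RPE, in every cell of the body, and the labels name no treatment in either group. The question was which of these factors differ between the genotypes.

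The RPE lies between the photoreceptors and the capillaries of the choroid. It secretes VEGF-A toward the choroid, where VEGF-A maintains the fenestrated endothelium, and it secretes inhibitors of vessel growth, of which pigment epithelium-derived factor (PEDF, the product of *Serpinf1*) and thrombospondin-1 are the best known. VEGF ligands bind receptor tyrosine kinases on endothelial cells, and angiopoietins bind the receptor encoded by *Tek*. TGF-β2 is the main TGF-β ligand of the eye.

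The genes counted rest on 29218135 to 33152725 reads in the WT libraries and 28907262 to 32336530 in the rd6 libraries. The values are normalized read counts, on which 3 reads are worth 2.71 to 3.32, and the member with the fewest reads, *Angpt2*, had 49 or more in every library. *Mfrp* itself ranged from 30132 to 45442 normalized counts in WT and from 20442 to 29732 in rd6. Of 12 RPE markers, chosen like the other gene lists with earlier results of these data known, 5 were lower in rd6 and the other 7 were not called. Of the latter 1, *Best1*, was near the floor of useful counts in both genotypes (means of 19.2 in WT and 29.2 in rd6). Libraries held RNA of other cells too. Markers of endothelium were higher in rd6 for 8 of 9 genes (summed 6188 to 11529 normalized counts in WT and 10002 to 23270 in rd6). Markers of microglia and macrophages were higher for 8 of 9, and markers of rods were lower for 2 of 7, where 11.4% of all genes tested were called higher and 11.6% lower. Markers of mural and stromal cells were lower for 1 of 10 and those of Muller glia and astrocytes for 1 of 6, with none higher. The latter summed to 64182 to 68070 in WT and to 51910 to 60814 in rd6. A list of 6 genes of the ocular surface epithelium, chosen after the data were seen (*Krt5*, *Krt12*, *Krt14*, *Krt15*, *Trp63* and *Aldh3a1*), summed to 214936 in WT replicate 4, 89432 in rd6 replicate 5 and 53754 in rd6 replicate 1, and to between 315 and 14767 in the other 9 libraries. Without these 3 libraries 7 of the 12 RPE markers and 6 of the 7 rod markers were lower, and 8 of 9 markers each of endothelium and of microglia and macrophages were higher. The 6 ocular surface genes were not called in either case, but their median log2 fold change was 2.00 with the 3 libraries and still 1.78 without. Leaving these out thus did not even out this RNA between the genotypes. The values of several members are also given without the 3 libraries. In RNA of a mixed tissue, fewer cells of a type and less RNA per cell cannot be told apart.

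The proximal promoters of 4 members are shown because their transcripts behaved differently: *Vegfa* fell, *Vegfc* and *Tgfb2* rose, and *Serpinf1* was not called. RefSeq promoter sequences were found for 7 of the 10 members. Each line below gives the 250 bases before the RefSeq start, 5′ to 3′ on the strand of the gene (GRCm38.p6), with motif matches in capitals.
Vegfa: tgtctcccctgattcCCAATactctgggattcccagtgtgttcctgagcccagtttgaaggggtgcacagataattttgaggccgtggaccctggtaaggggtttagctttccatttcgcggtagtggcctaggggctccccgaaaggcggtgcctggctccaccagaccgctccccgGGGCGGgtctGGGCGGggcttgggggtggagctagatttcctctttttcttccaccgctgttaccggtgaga
Vegfc: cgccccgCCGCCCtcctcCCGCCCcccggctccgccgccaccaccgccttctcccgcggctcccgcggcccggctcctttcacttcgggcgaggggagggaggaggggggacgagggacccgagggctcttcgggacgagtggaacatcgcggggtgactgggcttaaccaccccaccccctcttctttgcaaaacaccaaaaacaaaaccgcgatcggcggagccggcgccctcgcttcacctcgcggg
Tgfb2: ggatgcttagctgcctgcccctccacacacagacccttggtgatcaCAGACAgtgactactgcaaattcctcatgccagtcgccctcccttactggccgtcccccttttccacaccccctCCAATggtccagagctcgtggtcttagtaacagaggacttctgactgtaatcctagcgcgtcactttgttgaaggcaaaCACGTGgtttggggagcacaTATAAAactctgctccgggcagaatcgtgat
Serpinf1: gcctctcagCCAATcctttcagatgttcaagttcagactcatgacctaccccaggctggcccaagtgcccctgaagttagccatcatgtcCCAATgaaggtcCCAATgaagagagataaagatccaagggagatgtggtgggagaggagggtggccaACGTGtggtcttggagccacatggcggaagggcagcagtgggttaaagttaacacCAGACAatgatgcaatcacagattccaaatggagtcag
The *Vegfa* window is chr17:46032378-46032627 on the minus strand, *Vegfc* chr8:54077282-54077531 on the plus strand, *Tgfb2* chr1:186705990-186706239 on the minus strand and *Serpinf1* chr11:75422624-75422873 on the minus strand. The motifs searched on both strands were the GC box GGGCGG (in 32.7% of all 32851 promoter windows of this length), the TATA box TATAAA (12.4%), the CCAAT box CCAAT (33.8%), the E-box CACGTG (6.02%), the hypoxia-response cores ACGTG (16.6%) and GCGTG (28.2%), and the Smad half-site CAGACA (17.1%). An E-box always contains the ACGTG core, so these matches overlap. *Vegfa* held 2 GC boxes at -72 and -62, counted from the start, and 1 CCAAT box. *Vegfc* held 2 GC boxes at -243 and -232 and none of the other motifs. *Tgfb2* held a TATA box at -31, an E-box at -51, 1 CCAAT box and 1 Smad half-site. *Serpinf1* held 3 CCAAT boxes, 1 ACGTG core and 1 Smad half-site. G and C made up 59.2% of the *Vegfa* window, 71.6% of that of *Vegfc*, 53.6% of that of *Tgfb2* and 51.6% of that of *Serpinf1*, against a median of 52.4% over all windows. A match of letters is a description and not evidence of binding.

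At an adjusted p-value below 0.05 (limma on log2 of the normalized count + 1, Benjamini-Hochberg over 17768 genes), 4 members were higher in rd6 (*Thbs1*, *Tgfb2*, *Angpt1* and *Vegfc*) and 1 was lower (*Vegfa*). The other 5 (*Vegfb*, *Pgf*, *Angpt2*, *Thbs2* and *Serpinf1*) were not called. Of all genes tested, 11.4% were called higher and 11.6% lower. With a change of at least 1.75-fold besides, 2 members were higher (*Thbs1* and *Tgfb2*) and 1 lower (*Vegfa*), where 4.69% of all genes were higher and 2.12% lower. All rd6 libraries exceeded all WT libraries for 3 members (*Vegfc*, *Angpt1* and *Thbs1*; 5.77% of all genes), and all lay below the WT libraries for *Vegfa* alone (5.67% of all genes). The median log2 fold change of the members was 0.25, and that of all genes tested was 0.0049. Over all genes limma called 2024 higher and 2062 lower. edgeR called 1989 higher and 2094 lower with TMM scaling, and 2403 higher and 1572 lower with upper-quartile scaling. Without the 3 libraries rich in ocular surface RNA the members gave 4 higher and 1 lower again.

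**Figure D1:**
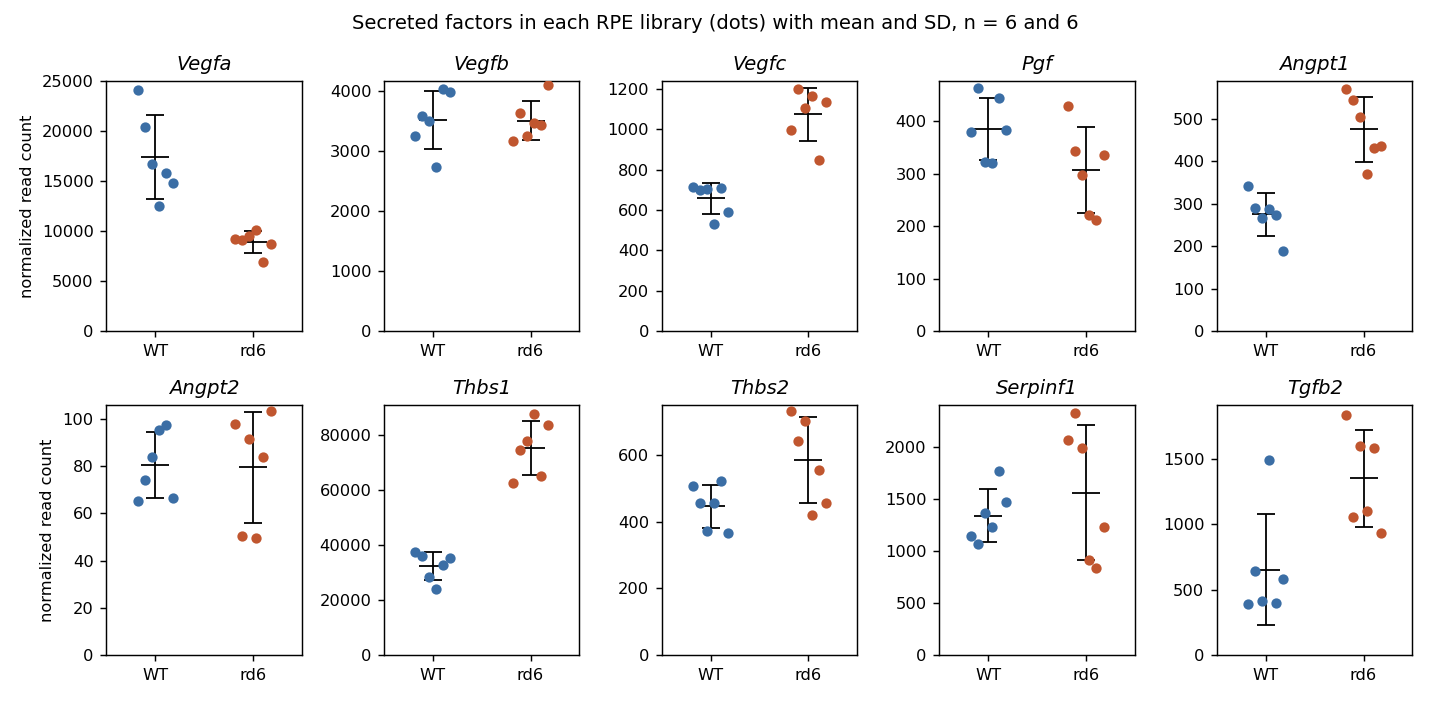
Normalized read count (vertical axes, from 0) of each of the 10 genes in the 6 WT and 6 rd6 libraries, 1 dot per library, with the mean and SD in black. The rd6 dots lie wholly above the WT dots for *Vegfc*, *Angpt1* and *Thbs1* and wholly below for *Vegfa*, while 1 WT library of *Tgfb2* lies at 1488 among the rd6 libraries.

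*Vegfa*, which encodes the main growth and survival factor of the choriocapillaris, fell in rd6. Its gene (ENSMUSG00000023951) spans 46016993 to 46032369 of chromosome 17, minus strand, in GRCm38. WT libraries ranged from 12562 to 24149 normalized counts with a median of 16284. The rd6 libraries ranged from 6943 to 10112 with a median of 9205, so that the highest rd6 library lay below the lowest WT library. WT libraries averaged 17416 ± 4185 (SD, n = 6), and rd6 libraries averaged 8943 ± 1086 (SD, n = 6). The log2 fold change was -0.94 (SE 0.14, 95% interval -1.25 to -0.63, limma adjusted p = 0.000477), which is 1.92-fold lower. The spread was wider in WT, with a coefficient of variation of 24.0% against 12.1%. Without the 3 libraries rich in ocular surface RNA the change was -0.95. The RPE markers moved the same way, with a median log2 fold change of -0.35 over 12 genes and the fall of 5 of them (7 without the 3 libraries), and their part in the *Vegfa* value was not tested. The table gives 1 value per gene, so the splice forms of *Vegfa* were not analysed here.

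*Vegfb*, which encodes a ligand of the receptor encoded by *Flt1* with weak angiogenic activity, showed the closest means of the 10 genes. It ranged from 2735 to 4042 normalized counts in WT (median 3537) and in rd6 from 3173 to 4098 (median 3450). The groups overlapped almost fully, with 1 rd6 library above the highest WT library. The log2 difference of 0.0049 had a 95% interval of -0.20 to 0.21 (limma adjusted p = 0.978), which is a ratio of rd6 to WT between 0.872 and 1.16.

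*Vegfc*, which encodes the lymphangiogenic ligand of the receptor encoded by *Flt4*, rose. Its gene (ENSMUSG00000031520) spans, on chromosome 8, 54077606 to 54187096 on the plus strand. WT libraries ranged from 533 to 714 normalized counts with a median of 702, and rd6 libraries from 849 to 1198 with a median of 1119. The groups did not overlap, and the lowest library of each genotype was 1 of the 3 that were rich in ocular surface RNA. The log2 fold change was 0.70 (SE 0.10, 95% interval 0.49 to 0.92, limma adjusted p = 0.000263), a 1.63-fold rise that stayed short of the 1.75-fold limit. Without those 3 libraries it was 0.75 with an adjusted p of 3.04e-05.

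*Pgf*, which encodes placental growth factor, a ligand of the receptor encoded by *Flt1*, was not called. It ranged from 320 to 464 normalized counts in WT (median 382) and in rd6 from 211 to 430 (median 318). Although 3 rd6 libraries lay below the lowest WT library, rd6 replicate 1 lay near the top of the WT range. The log2 difference was -0.36 (95% interval -0.72 to 0.01, limma adjusted p = 0.153).

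*Angpt1*, which encodes the vessel-stabilizing agonist of the receptor encoded by *Tek*, rose. Its gene (ENSMUSG00000022309) spans, on chromosome 15, 42424723 to 42676977 on the minus strand. WT libraries ranged from 189 to 342 normalized counts with a median of 281, and rd6 libraries from 369 to 570 with a median of 470. All 6 rd6 libraries lay above the highest WT library. The log2 fold change was 0.80 (SE 0.14, 95% interval 0.49 to 1.10, limma adjusted p = 0.00137), or 1.74-fold, just under the 1.75-fold limit. The annotation places an antisense gene (*Gm17473*) over 737 exon bases of *Angpt1*, and that gene had a mean of 1.96 normalized counts.

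*Angpt2*, which encodes the ligand that opposes angiopoietin-1 in quiescent vessels, had the fewest reads of the 10 genes. WT values ranged from 65.1 to 97.4 normalized counts (median 79.2) and rd6 values from 49.6 to 103 (median 87.7). The rd6 range enclosed the WT range, with 2 rd6 libraries above it and 2 below it. The log2 difference was -0.06 with a 95% interval of -0.51 to 0.39 (limma adjusted p = 0.865), which is a ratio of rd6 to WT between 0.701 and 1.31.

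*Thbs1*, which encodes thrombospondin-1, an inhibitor of endothelial cells and an activator of latent TGF-β, rose with the smallest adjusted p-value of the 10 genes. Its gene (ENSMUSG00000040152) spans, on chromosome 2, 118111876 to 118127133 on the plus strand. WT libraries ranged from 24001 to 37415 normalized counts with a median of 33940, and rd6 libraries from 62528 to 87725 with a median of 76015. The lowest rd6 library held far more than the highest WT library. The log2 fold change was 1.23 (SE 0.12, 95% interval 0.96 to 1.49, limma adjusted p = 1.5e-05), or 2.34-fold. Markers of microglia and macrophages rose in the same comparison (median log2 fold change 2.81 over 9 genes). Summed without *Csf1r*, which was not called, they held 435 to 991 normalized counts in WT and 3219 to 7064 in rd6. *Csf1r* alone averaged 17256.2 in WT and 18740.5 in rd6, and with it the sums were 13701 to 19274 in WT and 20756 to 27916 in rd6. The part of these cells in the *Thbs1* value was not tested. *Thbs2*, which encodes the related thrombospondin-2, ranged from 367 to 523 in WT (median 457) and from 422 to 734 in rd6 (median 601). Of the rd6 libraries 4 lay above the WT range and 2 within it, and the log2 difference of 0.37 (95% interval 0.05 to 0.69) was not called (limma adjusted p = 0.0872). DESeq2 called it (adjusted p = 0.0481), as did limma without rd6 replicate 4 (adjusted p = 0.0315), and without the 3 libraries rich in ocular surface RNA the adjusted p was 0.23.

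*Serpinf1*, which encodes PEDF, was not called, and its rd6 libraries split. Values in WT ranged from 1064 to 1771 normalized counts with a median of 1298. Among the rd6 libraries replicates 1, 2 and 3 held 2070, 2335 and 1993, above every WT library. Replicates 4 and 5 held 915 and 836, below every WT library, and replicate 6 held 1233. The coefficient of variation was 41.4% in rd6 and 19.1% in WT. The log2 difference was 0.13 with a 95% interval of -0.42 to 0.67 (limma adjusted p = 0.756). Summed endothelial markers also differed among these libraries, at 23270, 22865 and 18197 in replicates 1, 2 and 3 and at 10002, 12939 and 15168 in replicates 4, 5 and 6. Summed markers of mural and stromal cells ranged from 19116 to 27574 in WT and from 13452 to 25255 in rd6. The part of endothelial, stromal or other non-RPE cells in the *Serpinf1* values was not tested.

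*Tgfb2*, which encodes TGF-β2, rose. Its gene (ENSMUSG00000039239) spans, on chromosome 1, 186622792 to 186705989 on the minus strand. WT libraries ranged from 392 to 1488 normalized counts with a median of 495, and rd6 libraries from 930 to 1834 with a median of 1341. WT replicate 4 held the value of 1488, while the other 5 WT libraries lay at or below 643 and below every rd6 library. The log2 fold change was 1.19 (SE 0.30, 95% interval 0.53 to 1.85, limma adjusted p = 0.0136), or 2.28-fold. WT replicate 4 was also the library with the most ocular surface RNA, and among the rd6 libraries replicate 1, with the highest *Tgfb2* value of 1834, and replicate 5, with 1580, had the most. Without these 3 libraries WT held 484 ± 118 (SD, n = 5) and rd6 1171 ± 295 (SD, n = 4), with no overlap. The log2 fold change was then 1.27 (SE 0.19, limma adjusted p = 0.000845). In the 3 WT libraries with the lowest ocular surface sums (315 to 707) *Tgfb2* held 392 to 412, and in the 2 rd6 libraries with the lowest (665 and 894) it held 1103 and 930. The rd6 library with a sum of 3296 held 1600, and the WT library with a sum of 4103 held 579. Genes on the opposite strand overlap the exons of *Thbs1* by 208 bases and of *Tgfb2* by 124 bases, with means of 0.254 and 4.62 normalized counts. The part of ocular surface RNA in the *Tgfb2* values of the other libraries was not tested.

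**Figure D2:**
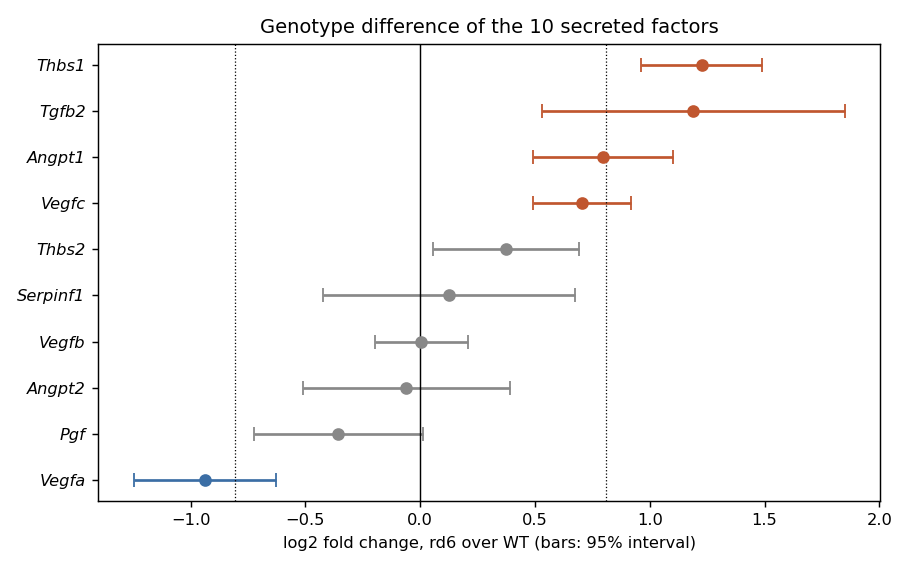
Log2 fold change of rd6 over WT (horizontal axis) for the 10 genes with 95% intervals from limma, in colour where the adjusted p-value was below 0.05 and in grey otherwise, with dotted lines at a change of 1.75-fold. *Thbs1* (1.23) and *Tgfb2* (1.19) lie highest, *Vegfa* (-0.94) lowest, and the interval of *Tgfb2* is the widest at 0.53 to 1.85.

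**Figure D3:**
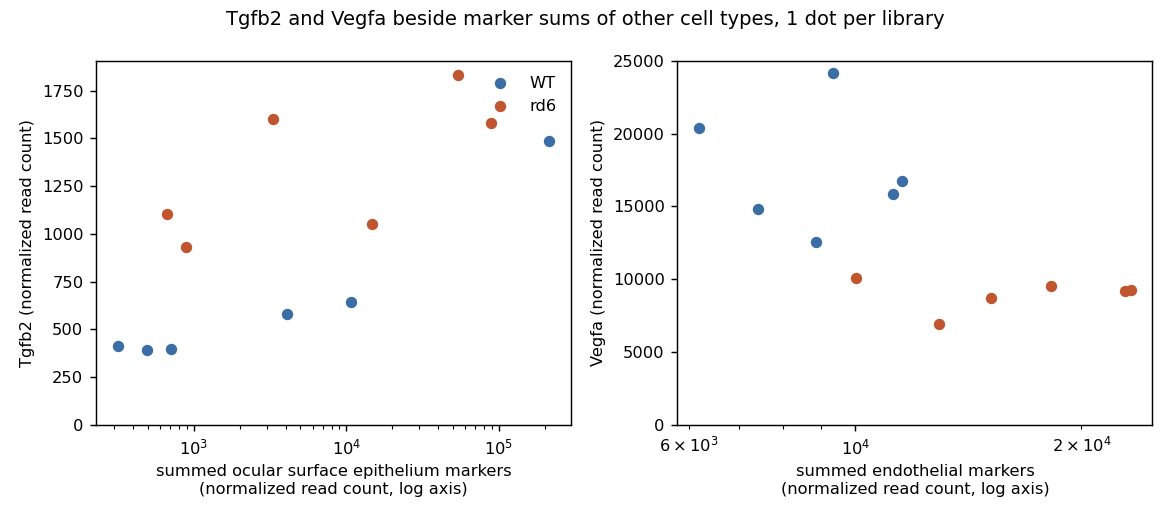
Left, *Tgfb2* against the summed markers of ocular surface epithelium; right, *Vegfa* against the summed markers of endothelium, in normalized read counts with log horizontal axes, 1 dot per library. At low ocular surface sums the rd6 dots for *Tgfb2* (930 and 1103) lie above the WT dots (392 to 412), and the WT dot at 214936 lies at 1488.

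Levels can be compared between genes only per length, and for this the reads were divided by the exon length of each gene and by the total reads of the library (RPKM). In WT the order of the mean RPKM was *Thbs1* (170), *Vegfa* (131), *Vegfb* (70.2), *Serpinf1* (18.3), *Vegfc* (8.64), *Pgf* (4.27), *Tgfb2* (3.69), *Thbs2* (2.06), *Angpt1* (1.70) and *Angpt2* (0.703). The ranges of *Thbs1* and *Vegfa* overlapped, as did those of neighbours from *Pgf* to *Angpt1*. *Thbs1* and *Vegfa* stood at the 98.6th and 98.2nd percentile of 17755 genes by WT level per length, *Serpinf1* at the 84.0th and *Angpt2* at the 21.4th. In rd6 the order was *Thbs1* (412), *Vegfb* (72.8), *Vegfa* (69.5), *Serpinf1* (22.2), *Vegfc* (14.6), *Tgfb2* (7.83), *Pgf* (3.53), *Angpt1* (3.06), *Thbs2* (2.81) and *Angpt2* (0.720). In WT *Vegfa* (101 to 181 RPKM) lay above *Vegfb* (58.5 to 77.9 RPKM) in every library, whereas in rd6 their ranges overlapped (56.3 to 76.4 against 67.8 to 81.1 RPKM). *Thbs1* had the highest RPKM of the 10 genes in every library of both genotypes, although its range overlapped that of *Vegfa* in WT. RPKM uses the union of annotated exons, so a gene read mostly as a short transcript is understated.

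The balance between factors was compared as the ratio of normalized counts within each library, which does not depend on the scaling of the library. *Thbs1* over *Vegfa* ranged from 1.55 to 2.37 in WT (median 1.83) and from 6.76 to 9.60 in rd6 (median 8.42). The difference was 2.16 on the log2 scale, or 4.48-fold (two-sided exact permutation test over 924 splits, p = 0.00216, adjusted over 3 ratios p = 0.00649, n = 6 and 6). Since all rd6 libraries lay above WT for *Thbs1* and below WT for *Vegfa*, the ratio had to separate the groups and reach this p, the smallest that the splits allow, and the test adds nothing to those calls beyond the size of the ratio. *Serpinf1* over *Vegfa* ranged from 0.0475 to 0.112 in WT (median 0.0898) and from 0.0905 to 0.255 in rd6 (median 0.176). Of the rd6 libraries only replicate 4 lay within the WT range, and the log2 difference was 1.06, or 2.09-fold (exact permutation test, p = 0.013, adjusted p = 0.013). With a block on replicate number the adjusted p of this ratio was 0.0938 by exact sign flips. *Serpinf1* itself was not called, while *Vegfa* was. *Angpt2* over *Angpt1* ranged from 0.19 to 0.355 in WT (median 0.323) and from 0.0928 to 0.237 in rd6 (median 0.177). The log2 difference was -0.86, or 1.81-fold lower (exact permutation test, p = 0.00649, adjusted p = 0.00974), with the ranges overlapping. *Angpt1* was called higher and *Angpt2* was not called.

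**Figure D4:**
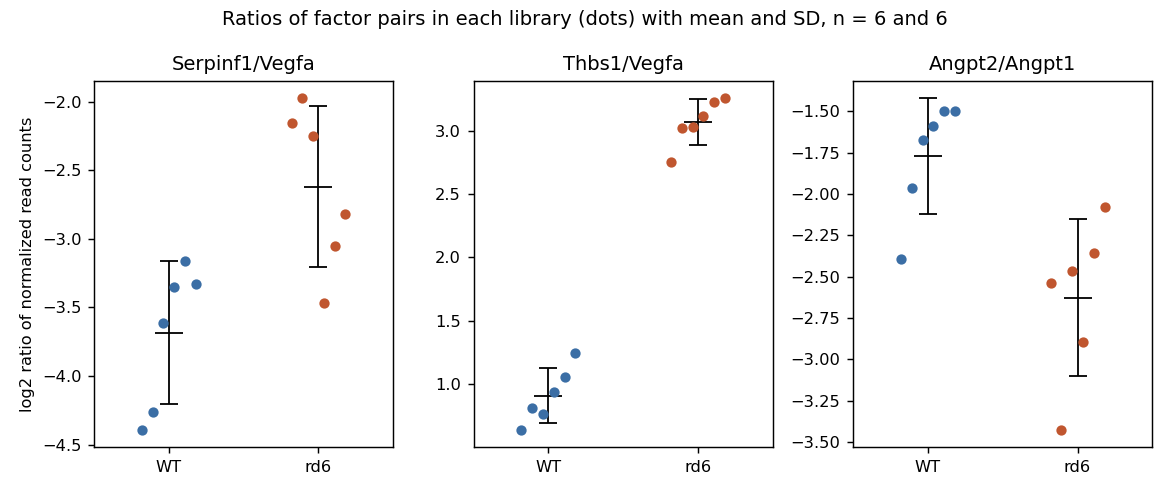
Log2 ratio of normalized read counts (vertical axes, each with its own range) for *Serpinf1* over *Vegfa*, *Thbs1* over *Vegfa* and *Angpt2* over *Angpt1* in each library, 1 dot per library, with mean and SD. The rd6 dots lie apart from the WT dots for *Thbs1* over *Vegfa*, with a difference of 2.16, and overlap them for the other pairs.

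The receptors of these factors were tested as a list of 24 genes, of which 8 were higher and 4 lower in rd6 (list median 0.33 on the log2 scale), where 11.4% of all genes were higher and 11.6% lower. Of the VEGF receptor kinases, *Flt1*, *Kdr* and *Flt4* rose. *Flt1*, the receptor of VEGF-A, VEGF-B and PlGF, ranged from 736 to 1776 normalized counts in WT and from 1765 to 3170 in rd6 (log2 fold change 0.96, SE 0.21, limma adjusted p = 0.0062). *Kdr*, the main signalling receptor of VEGF-A, ranged from 611 to 1317 in WT and from 1127 to 2446 in rd6 (0.78, SE 0.22, adjusted p = 0.0211). *Flt4*, the receptor of VEGF-C, rose by 0.89 (adjusted p = 0.0134), *Tie1*, a partner of the *Tek* receptor, by 0.90 (adjusted p = 0.00967) and *Acvrl1*, an endothelial type I receptor of the TGF-β family, by 0.82 (adjusted p = 0.0265). *Tek* ranged from 374 to 681 in WT and from 546 to 1427 in rd6 and was not called (0.73, adjusted p = 0.0571). These genes moved with the endothelial markers, 3 of which (*Cldn5*, *Plvap* and *Esam*, named after their values were seen) changed by 1.14, 0.93 and 0.88, and the part of the number of endothelial cells in the receptor values was not tested. The median log2 fold change of the 9 endothelial markers, which include *Kdr* and *Tie1*, was 0.88.

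The coreceptors and the receptors of the inhibitors were called in both directions. *Nrp2*, a coreceptor of VEGF-C and semaphorins, ranged from 1705 to 2038 normalized counts in WT and from 732 to 1251 in rd6 and fell by 0.88 on the log2 scale (SE 0.11, limma adjusted p = 0.000137), while its ligand *Vegfc* rose. *Nrp1*, the coreceptor of VEGF-A, was not called (0.52, adjusted p = 0.0654). Of the thrombospondin-1 receptors, *Cd47* rose by 0.39 (SE 0.07, adjusted p = 0.00205) and *Cd36* had a difference of -0.24 (adjusted p = 0.394). The integrin subunit *Itgb3* fell by 0.65 (adjusted p = 0.00177), and so did its partner *Itgav* by 0.57 (adjusted p = 0.00258) and the endocytic receptor *Lrp1* by 0.29 (adjusted p = 0.0452), the latter pair named after their values were seen. *Eng*, an endothelial coreceptor of TGF-β named in the same way, rose by 0.76 (adjusted p = 0.0387). *Tgfbr2*, the type II receptor of TGF-β, rose by 0.50 (SE 0.08, adjusted p = 0.000713), with every rd6 library (1695 to 2394) above every WT library (1318 to 1600). Without the 3 libraries rich in ocular surface RNA the receptor list gave 7 higher and 3 lower.

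Other secreted factors were read from lists too. Among 18 other angiogenic factors 5 were higher and 2 lower (of all genes, 11.4% and 11.6%, so that the lower count is near that share), and without the 3 libraries 5 were higher and 4 lower. *Igf1*, a growth factor, rose by 1.73 on the log2 scale, *Ang*, a ribonuclease that promotes vessel growth, by 1.43, *Pdgfb*, which recruits pericytes, by 1.07, *Fgf2* by 1.01 and *Egfl7*, which is also 1 of the 9 endothelial markers, by 0.96 (limma adjusted p between 1.48e-05 and 0.0175). Markers of microglia and macrophages (8 of 9 higher, median 2.81) and of endothelium (8 of 9 higher, median 0.88) moved the same way, and their part in these values was not tested. *Angptl4*, an inhibitor of lipoprotein lipase with reported effects on vessels, fell by 1.87 (adjusted p = 0.00325), the largest change of that list, and *Fgf1* fell by 0.49 (adjusted p = 0.000952). Among 15 other antiangiogenic factors 2 were higher and 3 lower (of all genes, 11.4% and 11.6%, so that the higher count is near that share), and without the 3 libraries 4 were higher and 3 lower. *Adamts1*, a protease that releases antiangiogenic fragments of thrombospondins, rose by 1.01 (adjusted p = 0.0211), and *Sparc*, a matrix protein that binds growth factors, by 0.48 (adjusted p = 0.00108). *Col18a1*, the source of endostatin, fell by 0.56 (adjusted p = 0.000448) and *Sema3f*, a semaphorin, by 0.44 (adjusted p = 0.00074). *Timp3*, an RPE inhibitor of metalloproteases and of VEGF-A binding that was singled out after its values were seen, ranged from 211363 to 311883 normalized counts in WT and from 116745 to 201921 in rd6 and fell by 0.66 (adjusted p = 0.00642). *Thbs1* and *Timp3* thus changed in opposite directions. The RPE markers moved the same way as *Col18a1*, *Sema3f* and *Timp3* (5 of 12 lower, median -0.35), and their part in these values was not tested.

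The TGF-β genes around *Tgfb2* were read from a list of ligands with their latency and activation genes and from a list of signalling and target genes, which share *Ltbp2*. Of 17 genes of the first list 2 were higher, *Tgfb1* (log2 fold change 0.83, limma adjusted p = 0.00152) and *Lrg1*, a modulator of endothelial TGF-β signalling (0.88, adjusted p = 0.0455), and the other 15 were not called, *Ltbp1* with the next smallest adjusted p (0.117) among them. This share is near the 11.4% of all genes called higher. Without the 3 libraries rich in ocular surface RNA 3 were higher. Of 22 genes of the second list 6 were higher and 1 lower (of all genes, 11.4% and 11.6%). *Id1*, *Id2* and *Id3*, transcriptional inhibitors that respond to BMP and TGF-β signals, rose by 1.40, 1.35 and 1.29, and *Postn*, which encodes periostin, by 1.53 (adjusted p between 5.74e-07 and 0.000548). For *Id2* every rd6 library (9054 to 11785 normalized counts) lay above every WT library (3547 to 4963). Markers of endothelium and of microglia and macrophages also rose (8 of 9 higher in each, medians 0.88 and 2.81), and their part in these values was not tested. Without the 3 libraries the second list gave 8 higher and 2 lower.

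Because *Vegfa* and several of its neighbours in function are known targets of hypoxia-inducible factors, 24 genes of the hypoxia response were tested, with 5 higher and 4 lower (of all genes, 11.4% and 11.6%) and a median log2 fold change of 0.13, and with 7 higher and 4 lower without the 3 libraries. *Pdk1*, a kinase that restrains pyruvate oxidation, rose by 1.61 (limma adjusted p = 4.44e-07), *Ldha* by 0.60 and *Pgk1*, both glycolytic, by 0.53. *Slc2a1*, which encodes the glucose transporter GLUT1 and was named after its values were seen, fell by 0.53 (adjusted p = 0.000561). The factors themselves, named in the same way, went in opposite directions: *Hif1a* rose by 0.45 (adjusted p = 0.00123) and *Epas1* fell by 0.37 (adjusted p = 0.00444).

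**Figure D5:**
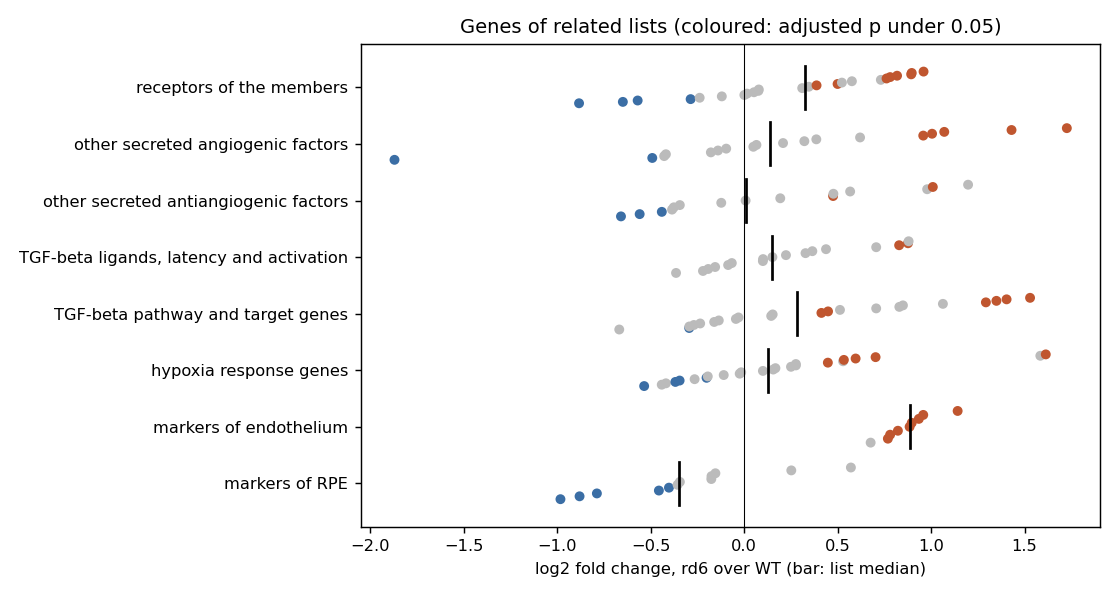
Log2 fold change of rd6 over WT (horizontal axis) of every tested gene in 8 lists, 1 dot per gene, coloured where the limma adjusted p-value was below 0.05, with a bar at the list median. The endothelial markers lie to the right of 0 around a median of 0.88, the RPE markers mostly to the left (median -0.35), and the other lists hold genes on both sides.

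The genes that followed a member most closely within the genotypes were found by the Pearson correlation of log2 values after subtracting the mean of each genotype, over 12 libraries that share their dissection and depth. For *Vegfa* these were *Arhgef40* (0.97), *Six3os1* (0.97) and *Cacna1c* (0.97), of which *Cacna1c* (log2 fold change -0.83) and *Six3os1* (-0.51) also fell in rd6 and *Arhgef40* was not called. For *Serpinf1* they were *Tnmd* (0.98), *Lbp* (0.98) and *Crispld2* (0.96), of which *Crispld2* fell in rd6 by 1.46 on the log2 scale and the other two were not called. For *Thbs1* they were *Stk39* (0.97), *Svip* (0.96) and *Sfrp5* (0.96). Although *Thbs1* rose in rd6, *Svip* fell by 0.36 and *Sfrp5* by 0.48, and *Stk39* was not called. For *Tgfb2* they were *Rassf9* (0.98), *Retreg1* (0.97) and *Cdon* (0.97), of which *Rassf9* rose by 1.72 and *Retreg1* by 0.73 and *Cdon* was not called. These are descriptions of the spread among these libraries, and the *Tgfb2* values carry the difference of WT replicate 4.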

How the data were processed

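RNA of the RPE from 6 WT and 6 rd6 mice (both eyes combined per library) was sequenced from a stranded total-RNA library. The authors aligned reads to mm10 and counted them with Rsubread with standard parameters; whether strand was used is not given in the sources used here. The deposited signal is each gene's count after division by the library's DESeq2 size factor. The authors' own fold changes and p-values in the table were not used. All deposited values were whole multiples of 1 read (tolerance 1e-06), so reads were recovered. Repeated entries (5) were dropped.

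The main test was limma 3.58.1 (R 4.3.3, mean-variance trend) on log2(signal + 1), which understates changes of low genes, on genes averaging 10 or more, with genotype as the only term. The labels name no batch. Ratios were tested by exact permutation (SciPy 1.17.1). Alternatives were pseudocounts of 0.1 and 10, other filters, TMM rescaling, edgeR 4.0.16, DESeq2 1.42.0 on recovered reads, a replicate block, and leaving out libraries. The fits were tested on simulated data with the same dispersion for every gene. That simulation does not cover libraries of uneven tissue content. Coordinates and exon lengths are from GENCODE M21 (GRCm38), and promoters from RefSeq (GRCm38.p6). The members and gene lists were chosen with earlier results of these data known. Named genes are the members, listed genes called past 1.75-fold or with the 3 smallest adjusted p-values, 7 receptors, and the 3 genes correlating best with each of 4 members. Any other gene was named after its values were seen. Each library is taken as 1 mouse, and p-values measure the spread between these libraries. Depth and floors cover counting error only.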

Additional observations from a re-analysis of the deposited data

Results flagged for a closer look

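Of 26 groups of 6 libraries examined for a library far from the others (each member and ratio in each genotype), 1 stood out: *Tgfb2* in WT, where replicate 4 held 1488 normalized counts and the other 5 WT libraries 392 to 643. Chance alone would mark about 1 group in 20. The same library held the most RNA of ocular surface epithelium markers (214936 normalized counts summed over 6 genes). Without it the log2 fold change of *Tgfb2* was 1.46 (limma adjusted p = 0.000199). The part of ocular surface RNA in this value was not tested.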

How the results depend on the processing

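Under 22 alternatives for genes, 1 of which (without the 3 libraries with most ocular surface RNA) was chosen after seeing the data, the members called higher numbered 3 to 5 and those called lower always 1, while calls over all genes ranged from 1453 to 2428 higher and from 1489 to 2396 lower. *Vegfa* (-1.03 to -0.84), *Vegfc* (0.65 to 0.77), *Angpt1* (0.69 to 0.86) and *Thbs1* (1.14 to 1.28) kept their direction and call in all of them, and *Vegfb*, *Pgf*, *Angpt2* and *Serpinf1* were called in none. *Thbs2* was called by DESeq2 (0.39) and without rd6 replicate 4 (0.46). The labels do not say whether libraries of the same replicate number belong together. The deviations of same-numbered libraries from their group means correlated between -0.74 and 0.31, and only 1 of 6 pairs exceeded 0.1. The lowest correlations were those of replicates 1 (-0.55), 4 (-0.74) and 5 (-0.53), which hold the 3 libraries rich in ocular surface RNA. They therefore cannot settle whether the libraries were paired. With a block on replicate number the log2 fold change of *Tgfb2* was 1.19 with an adjusted p of 0.0587, the member counts were 3 higher and 1 lower, and the log2 ratio of *Serpinf1* over *Vegfa* was 1.06 with an adjusted p of 0.0938 by sign flips (exact); no other call on a member or ratio changed with the block. Leaving out each replicate in turn gave 4 to 5 members higher and 1 lower, and log2 ratios of 0.92 to 1.23 for *Serpinf1* over *Vegfa*, 2.11 to 2.23 for *Thbs1* over *Vegfa* and -0.98 to -0.70 for *Angpt2* over *Angpt1*. With 9 libraries (5 WT and 4 rd6) every adjusted p of the ratios was 0.0476 (exact permutation test). For *Thbs1* over *Vegfa*, whose groups do not overlap, the p before adjustment could only be the smallest that the splits of 9 libraries allow. It adds nothing to the separation itself. All 64 genes called in the lists and marker sets kept their direction under the TMM, upper-quartile and DESeq2 scalings, and 59 to 64 stayed called. With the block on replicate number, the list genes *Acvrl1*, *Eng*, *Esam*, *Pdgfb*, *Adamts1* and *Lrg1* named above were no longer called (limma adjusted p between 0.0601 and 0.097). Depth limits *Angpt2* most, at 49 reads in its lowest library.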
